A study of Mus musculus with 4 samples.

Results

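Retnlg-high neutrophils were a subset of the neutrophils in mouse prostate tumours, chosen cell by cell from their transcript counts, and they numbered 170 of 1124 neutrophils and of 3381 cells in all. The cells came from 4 single-cell libraries of dissociated tumours. The 2 DKO libraries carried the genotype Nkx3.1CreERT2 with floxed alleles that include Smad4L/L, and the 2 TKO libraries carried the same alleles plus floxed Pygo2 (Pygo2L/L). All 4 therefore shared the Cre driver and the floxed alleles of DKO, and the comparison asks what the additional loss of Pygo2 changes. The Cre is tamoxifen-inducible and is driven by Nkx3.1, a gene of prostate epithelium, so the neutrophils are host cells in which no deletion is expected. The series describes samples 10 and 17 weeks after tamoxifen, and no label ties a library to either time. The labels do not say that replicates came from separate animals, so a p-value here reflects library-to-library spread alone, and that spread may be technical.

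Neutrophils are short-lived white blood cells that leave the bone marrow and reach tissues through the blood. While they mature they make granule proteins in a fixed order, and in tissue they lose some homing receptors and change their cytokines. In mice, high Retnlg, a resistin-like secreted protein, together with stefin A genes is commonly read as a mark of mature blood-like neutrophils, whereas tumour-resident neutrophils are known for Siglecf and for inflammatory cytokines.

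The members were chosen from unique molecular identifiers (UMIs, counts of single captured transcripts). A neutrophil was a cell with at least 1% of its UMIs in S100a8, S100a9, Csf3r, Il1r2, G0s2 and Clec4d and at most 1 UMI of the CD3 genes of T cells. A member also had fewer than 3 UMIs of Siglecf, Ltc4s and Gpc3 together, fewer than 10 of the interferon-induced Rsad2, Ifit1, Ifit2 and Ifit3, fewer than 4 of the cytokine genes Il1a, Tnf and Il23a with Gpr84, and at least 5 of Retnlg, Stfa2l1 and Lrg1. DKO replicate 1 held 47 members and DKO replicate 2 held 49, while TKO replicate 1 held 38 and TKO replicate 2 held 36. The upper limits removed many cells. Of 368 neutrophils with at least 5 UMIs of the selecting genes, 198 exceeded a limit, 107 of them on the interferon genes, 120 on the cytokine genes and 18 on the Siglecf genes.

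The selecting genes did not mark one uniform set of cells. Retnlg had a UMI in 128 of the 170 members, Lrg1, a secreted leucine-rich glycoprotein, in 131, and Stfa2l1, a stefin-like protease inhibitor gene, in 85. All 3 genes were seen together in 44 members, and 40 members had only 1 of them. The median sum of the 3 genes per member was 21 and 13 UMIs in DKO, against 16 and 11.5 in TKO. At the threshold, 24 members had 5 or 6 UMIs and 32 neutrophils within the same limits had 3 or 4. The highest range, 20 UMIs or more, held 24 and 18 members in DKO and 15 and 4 in TKO, so TKO replicate 2 had few of the strongest members.

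**Figure D1:**
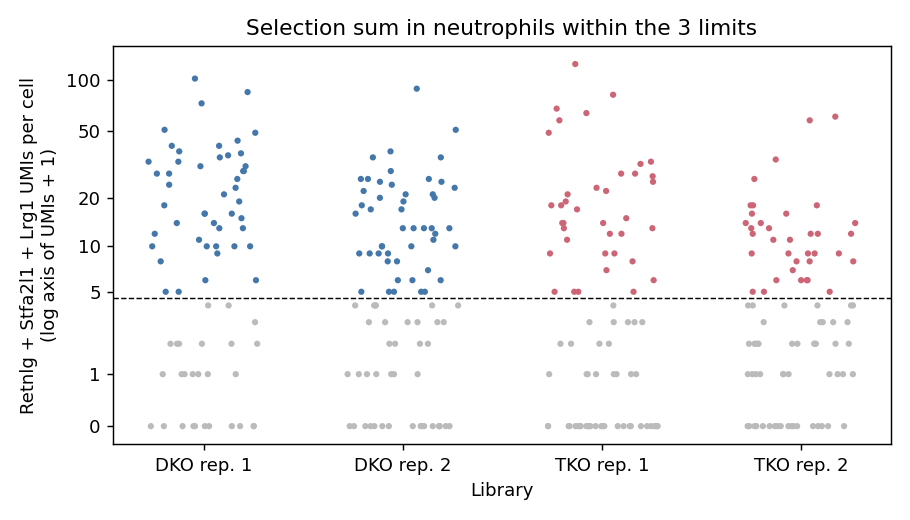
Sum of Retnlg, Stfa2l1 and Lrg1 UMIs per cell (log axis of UMIs + 1) in the 333 neutrophils within the 3 upper limits, by library. Coloured points at or above the dashed line are the 170 members and grey points are neutrophils below 5 UMIs; in TKO replicate 2 only 4 members reach 20 UMIs.

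The label of the cells came with 2 further markers that played no part in the choice. They were proposed with earlier results of these data known, so their levels describe the cells and do not test the label. Wfdc21, a small secreted protein of the WAP family, stood at 778, 555, 617 and 546 CPM, against 309, 272, 144 and 166 in the other neutrophils of the same libraries. CPM are UMIs of a gene per 1000000 UMIs of the cells concerned, and 4 values in a row are DKO replicates 1 and 2, then TKO replicates 1 and 2. Slc2a3, the glucose transporter GLUT3, stood at 1247, 1003, 805 and 537 CPM against 137, 251, 215 and 290. Both were higher in the members of all 4 libraries. Nothing in the files measures when a cell entered the tumour, so the cells are named here only by their leading gene.

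Promoter sequences are given for Retnlg, the gene that names the cells, and for the 3 genes that passed the genotype test described further on. They are the 250 bases before the RefSeq start site on GRCm38.p6, written 5′ to 3′ on the gene's strand. Capitals mark matches to the letters TTGCNNAA (a C/EBP-type motif) or GAANNTTC (a heat shock factor-type motif), both strands searched. These letters occur in 9.56% and 6.69% of 32851 mouse promoter windows of this length. The windows are chr16:48872358-48872607 (plus strand) for Retnlg, chr12:79208663-79208912 (plus strand) for Rdh12, chr17:34972157-34972406 (minus strand) for Hspa1a and chr17:34959239-34959488 (minus strand) for Hspa1b.
Retnlg: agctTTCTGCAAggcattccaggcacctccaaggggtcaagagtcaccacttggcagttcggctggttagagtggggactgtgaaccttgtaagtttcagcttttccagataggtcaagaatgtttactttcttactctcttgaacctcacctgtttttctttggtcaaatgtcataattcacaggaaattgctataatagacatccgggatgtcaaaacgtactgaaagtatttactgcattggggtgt
Rdh12: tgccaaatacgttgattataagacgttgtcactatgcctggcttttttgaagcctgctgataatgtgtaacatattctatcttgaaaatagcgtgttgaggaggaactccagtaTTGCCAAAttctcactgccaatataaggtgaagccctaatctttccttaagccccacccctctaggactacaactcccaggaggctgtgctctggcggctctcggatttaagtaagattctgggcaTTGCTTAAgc
Hspa1a: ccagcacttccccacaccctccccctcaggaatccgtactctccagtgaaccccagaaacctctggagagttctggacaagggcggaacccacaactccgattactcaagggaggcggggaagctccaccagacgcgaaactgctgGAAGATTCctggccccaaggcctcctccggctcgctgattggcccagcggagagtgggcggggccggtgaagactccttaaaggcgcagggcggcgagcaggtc
Hspa1b: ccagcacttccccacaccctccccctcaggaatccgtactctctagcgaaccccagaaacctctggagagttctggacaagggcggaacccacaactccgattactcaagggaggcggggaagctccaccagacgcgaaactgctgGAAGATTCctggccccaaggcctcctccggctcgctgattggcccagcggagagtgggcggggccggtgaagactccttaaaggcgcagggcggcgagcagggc
The Hspa1a and Hspa1b windows are identical at 247 of 250 positions (98.8%). A STAT-type motif, TTCNNNGAA, was also searched (7.02% of windows hold it) and is not in these 4 windows. Windows of the other selecting genes, Stfa2l1 and Lrg1, were searched in the same way and held no match to any of these motifs.

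The members held 326348 and 328082 UMIs in DKO and 260864 and 228875 in TKO, which limits what can be measured for a rare transcript: 3 UMIs correspond to 9.14 to 13.1 CPM. The median member had 6989 and 6394 UMIs in DKO and 6961.5 and 6006 in TKO, close to the other neutrophils (7216, 6901, 7052 and 6260). Members nevertheless showed fewer genes per cell, 1622, 1588, 1660.5 and 1618.5 against 2026, 1687, 2059 and 1736. Their mitochondrial share was 0.194%, 0.194%, 0.147% and 0.159%, against 0.300%, 0.244%, 0.264% and 0.235%. No barcode was shared between libraries, and every barcode's highest hashtag was its own library's. The libraries were told apart by hashtag, so this is no check of their labels.

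Most members carried each neutrophil marker checked. Csf3r, the G-CSF receptor, Il1r2 and Clec4d were seen in all 170 members, and S100a8 and S100a9, the calprotectin subunits, in 168 and 169. These are all rule genes, so their presence follows largely from the choice. Of the markers the rule did not use, Hdc, histidine decarboxylase, was seen in 164, Trem1 in 163, Cxcr2 in 144 and Mmp9 in 139. Of the other cell types checked, mast cell markers had 5 of 6 genes at 0 in the members and a sum of at most 7.67 CPM, and 3 of 5 eosinophil markers (Prg2, Epx and Il5ra) were at 0. NK markers summed to 4.37 to 11.5 CPM, and Cd8a, Ms4a1, C1qc, Mrc1, Clec9a, Xcr1 and F13a1 of the T cell, B cell and myeloid lists were at 0. Other genes of those lists were present: the dendritic list summed to 391 to 594 CPM and the B cell list to 299 to 446. The monocyte list summed to 149 to 328, the macrophage list to 76.7 to 197 and the T cell list to 26.8 to 70.1. Ly6c2 was seen in 27 members (15.9%, against 8.39% of other neutrophils). Ccr7 was seen in 8, C1qb in 5, C1qa and Cd79a in 3 each and Cd209a in 2. Cd74 was seen in 103 members, H2-Ab1 in 73, Plac8 in 51 and Apoe in 47. In the other neutrophils the same genes were seen in 59.2%, 35.3%, 42.8% and 34.5% of cells, against 60.6%, 42.9%, 30% and 27.6% of members. Transcripts of plasma cells and fibroblasts were found at like shares in both neutrophil groups: Igkc in 82.9% of members and 80.6% of other neutrophils, and Col3a1 in 76.5% and 76.0%. A single Cd3d UMI, which the rule allows, was present in 9 and 14 DKO members but in 0 and 2 TKO members. Its part in the results below was not tested.

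Members of another makeup were few but weighed on single genes. A member of DKO replicate 2 held 153 fibroblast UMIs among 16071, and a member of TKO replicate 2 held 2506 UMIs of prostate secretory genes and 45 of epithelial genes among 18617. That one cell held all but 6 of the 2512 secretory UMIs in its library's members.

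Compared with the other 954 neutrophils, the Retnlg-high cells carried more transcripts of stefin and WAP protease inhibitor genes and of most homing receptors, and fewer of most survival genes. Late granule genes went both ways in this comparison, and most interferon-inducible genes were lower only while all other neutrophils were the comparison. Since the same counts chose the cells, these differences are a description without a test. Among 3017 genes at 50 CPM or more, 76 (2.52%) were at least 2-fold higher with the same sign in all 4 libraries and 422 (14%) at least 2-fold lower. The median gene was at -0.24 on the log2 scale, where a difference is log2 of the members' CPM + 5 over the other neutrophils' CPM + 5, taken per library and then as the median of the 4. Against the 163 neutrophils that met the same 3 limits but had under 5 UMIs of the selecting genes, 23 of 2816 (0.817%) were 2-fold higher and 86 (3.05%) 2-fold lower. In that comparison 7.6% of genes were higher and 17.7% lower in all 4 libraries.

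Granule genes of late maturation were unequal. Mmp8, neutrophil collagenase, stood at 178, 195, 49.8 and 43.7 CPM in the members, against 33.4, 47.1, 4.56 and 16.9 in the other neutrophils, a median log2 difference of 2.10 (range 1.15 to 2.52). It was seen in 59 of 170 members and in 67 of the 954 others. Lcn2, which binds bacterial siderophores, was also higher in every library (median log2 0.79), as was Pglyrp1, a peptidoglycan recognition protein (1.30), and Adam8, a granule metalloprotease (1.46). Mmp9, gelatinase B, was lower in each (-0.38), and so were Chil3 (-1.46) and Lyz2, lysozyme (-0.40). Against neutrophils within the limits Lyz2 was higher instead (0.58). Of the 11 late granule genes at 50 CPM or more, 5 were higher and 4 lower in all 4 libraries, where 16.4% and 36.2% of all genes were. Against neutrophils within the limits 6 of 9 were higher and 1 lower (median 0.83), where 7.6% and 17.7% of all genes were. The early granule genes of the bone marrow were nearly silent: Elane, Ctsg, Ms4a3 and Prtn3 had 0 UMIs in the members and Mpo had 1 cell with a UMI. Prtn3, proteinase 3, was seen in 74 other neutrophils, at 19.9 CPM over the 4 libraries, and was at least 7.58-fold lower in the members (against 3 UMIs over the group, 2.62 CPM).

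Stefin A and WAP family genes were higher almost throughout. Of 5 that were not in the rule and reached 50 CPM, 4 were higher in all 4 libraries (16.4% of all genes were) and 3 were at least 2-fold higher (2.52% of all genes), with a list median of 1.26. It was also 4 of 5 against neutrophils within the limits (7.6% of all genes), with a median of 1.54. Cstdc4, a stefin-like gene on the same chromosome as Stfa2l1, stood at 1333, 835, 1457 and 345 CPM in the members against 407, 200, 301 and 171. Stefin A genes are near-identical copies, and the sources used here do not say how reads were divided among them, so each level is uncertain. Wfdc17 was at 1832, 982, 1211 and 655 CPM against 657, 529, 558 and 246, and Slpi, the secretory leukocyte protease inhibitor, at a median difference of 0.91. TKO replicate 2 was lowest for Cstdc4, Wfdc17 and Slpi, as it was for the sum of the selecting genes.

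Receptors for homing and chemotaxis were higher more often than not, with 11 of 16 higher in all 4 libraries, against 16.4% of all genes. Against neutrophils within the limits 5 of 16 were higher in all 4 libraries (median 0.25), where 7.6% of all genes were. Cxcr2, the receptor for neutrophil-attracting chemokines, was at 0.73, Fpr1, a formyl peptide receptor, at 0.92 and Itgal, an integrin chain, at 1.05. Cxcr5, a chemokine receptor best known from lymphocytes, was at 70.5, 101, 57.5 and 131 CPM against 21.9, 14.9, 18.6 and 36.2. It was seen in 38 members. Icam1, an adhesion ligand induced by inflammation, went the other way in each library (-1.33).

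Metabolic genes did not move as one list. Next to Slc2a3 (median log2 1.93), the lactate exporter gene Slc16a3 was higher in every library at 1.14, while hexokinase 2 was lower in each (Hk2, -1.95) and Gapdh, Ldha and Pkm were lower at -0.52, -0.30 and -0.17. Against neutrophils within the limits Hk2, Gapdh and Ldha turned to 0.13, 0.10 and 0.20. Of 58 nuclear genes of the respiratory chain, a list chosen after values were seen, 47 were lower in all 4 libraries and 33 at least 2-fold, against 36.2% and 14% of all genes. Uqcrb, a complex III subunit, stood at 36.8, 9.14, 26.8 and 8.74 CPM in the members and 166, 127, 148 and 88.6 in the others. Ribosomal protein genes, also listed after values were seen, were lower in all 4 libraries in 52 of 82. Against neutrophils within the limits this held for 8 of 84 ribosomal genes and 17 of 46 respiratory chain genes, where 17.7% of all genes were lower.

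Of 13 cytokine and chemokine genes outside the rule, 7 were lower and 3 higher in all 4 libraries, against 36.2% and 16.4% of all genes. Of 12 compared with neutrophils within the limits, 1 was lower and 1 higher, where 17.7% and 7.6% of all genes were. Cxcl10, an interferon-induced chemokine, stood at 39.8, 24.4, 38.3 and 26.2 CPM in the members and 687, 818, 913 and 633 in the others (median log2 -4.38), with no overlap. Hilpda, a hypoxia-induced lipid droplet gene, was at -1.75, Vegfa at -1.39 and Ccl3 at -1.45. Of 16 genes known from tumour-adapted neutrophils, 8 were lower and 3 higher in all 4 libraries, again beside 36.2% and 16.4% of all genes. When set against neutrophils within the limits, 3 were lower and 0 higher, beside the same 17.7% and 7.6% of all genes. Ms4a6d had 2 UMIs in all members against 823 in the others, a ratio of 69.3 (95% counting interval 19.1 to 573). That interval is on UMIs summed over libraries and leaves out the spread between cells and libraries. Nr4a2, an immediate early nuclear receptor, was at 27.6, 36.6, 57.5 and 48.1 CPM against 279, 270, 491 and 354. Il15, a cytokine that sustains lymphocytes, was an exception, at 447, 540, 667 and 922 CPM against 105, 328, 185 and 365 (median log2 1.58). So was Ccl6, at 0.91.

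Interferon-inducible genes beyond the 4 in the rule were mostly lower as well. Of 22 interferon-inducible genes outside the rule, 16 were lower in all 4 libraries and 13 at least 2-fold, against 36.2% and 14% of all genes. Examples were Usp18 (-2.18), Stat2 (-1.66) and Irf7 (-1.35). Against neutrophils held to the same limits, 13 genes of the list reached 50 CPM. Of these, 3 were higher and 0 lower in all 4 libraries, where 7.6% and 17.7% of all genes were. Their median was 0.45, in place of -1.22 for the 22 genes above. The 2 medians do not cover the same genes, and the part of that in the turn of direction was not tested. The summed level of the whole list was 8114, 6523, 8943 and 7043 CPM in the members against 6941, 8960, 8485 and 8805 in all other neutrophils, higher in the first replicate of each genotype and lower in the second. Ifitm1, a membrane protein that restricts viruses, was higher in the members against both (1.27 and 0.90). Survival genes were lower more often: 7 of 10 in all 4 libraries and 5 at least 2-fold, against 36.2% and 14% of all genes. Bcl2a1a (-1.68), Bcl2a1d (-1.63) and Xiap (-1.12) were among those 5. The Bcl2a1 genes are close copies, and reads may have been split among them. Against neutrophils within the limits 4 of 10 were lower in all 4 libraries, as were 17.7% of all genes.

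The 15 highest and 15 lowest genes by this measure kept their direction in 30 of 30 cases when cells were thinned to 2000 UMIs, with the same sign in all 4 libraries in 20. Against neutrophils within the limits 27 of 30 kept it. The 3 that did not, Cmpk2, Gbp5 and Ifit3b, are interferon-induced genes.

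**Figure D2:**
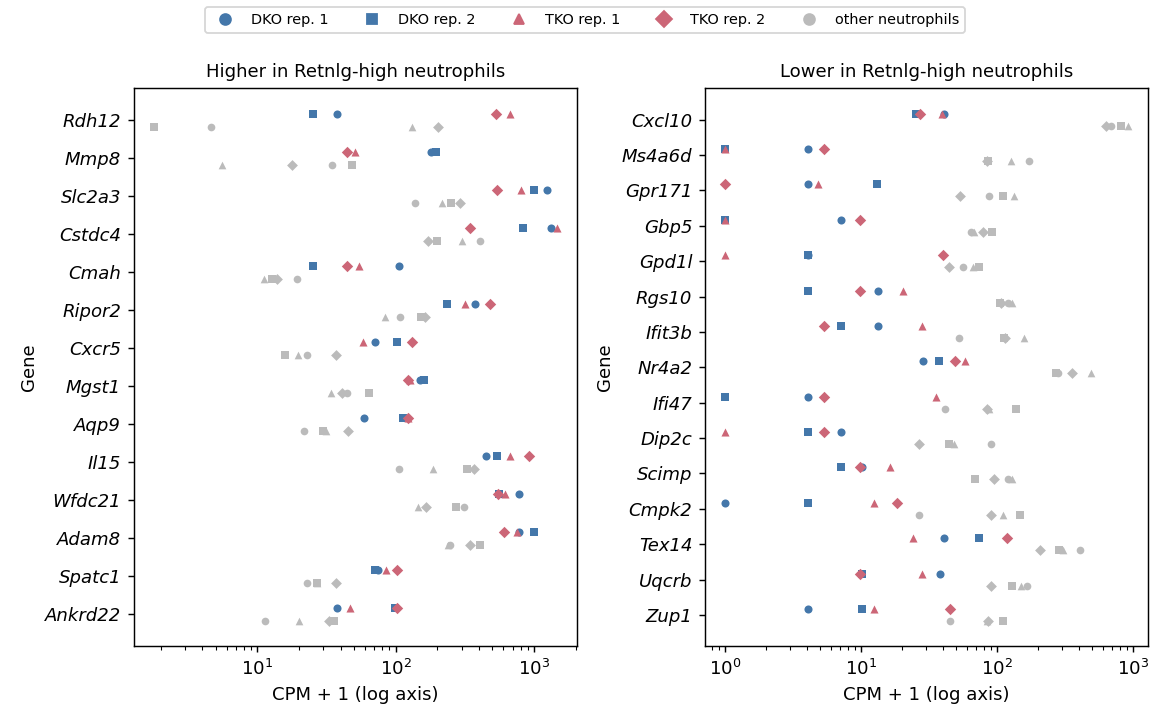
CPM + 1 (log axis) of genes among the 15 with the highest and the 15 with the lowest median difference, with Retnlg-high neutrophils coloured by genotype and other neutrophils grey, 1 point per library. Cxcr5 lies above the grey point of the same library in every library, and Cxcl10 lies below it in every library.

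Retnlg-high neutrophils made up a larger part of the cells in both DKO libraries than in either TKO library. Of all retained cells they were 7.62% (exact 95% binomial interval 5.65 to 10.0) and 6.46% (4.81 to 8.45) in DKO, and 3.15% (2.24 to 4.29) and 4.52% (3.18 to 6.20) in TKO. Averaged by genotype this was 7.04 ± 0.82% in DKO and 3.83 ± 0.97% in TKO (SD, n = 2). TKO minus DKO was -3.21 percentage points (exact two-sided permutation p = 0.333, the smallest that 4 libraries allow). Of the neutrophils they were 17.7% and 21.5% in DKO and 9.48% and 15.7% in TKO, with means of 19.6 ± 2.70% and 12.6 ± 4.42% (SD, n = 2, exact permutation p = 0.333). The groups do not overlap on either scale, and this design cannot pass 0.05. Intervals cover counting error only.

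These shares depend on where the cells were drawn. With each cell thinned to 2000 UMIs before the choice, members were 6.47 ± 1.68% of retained cells in DKO and 2.26 ± 0.05% in TKO (SD, n = 2). The ratio of the means was then 2.87 in place of 1.84. A threshold of 3 UMIs brought the shares of neutrophils to 18.8% and 26.8% against 11% and 20.5%, which overlap (exact permutation p = 0.667). Without TKO replicate 1 the difference in the share of neutrophils was -3.86 points in place of -6.98. Without the 3 upper limits, neutrophils with at least 5 UMIs of the selecting genes were 32.0% and 44.7% of neutrophils in DKO and 28.2% and 29.7% in TKO. Dissociation and the removal of dying cells precede all of these shares.

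**Figure D3:**
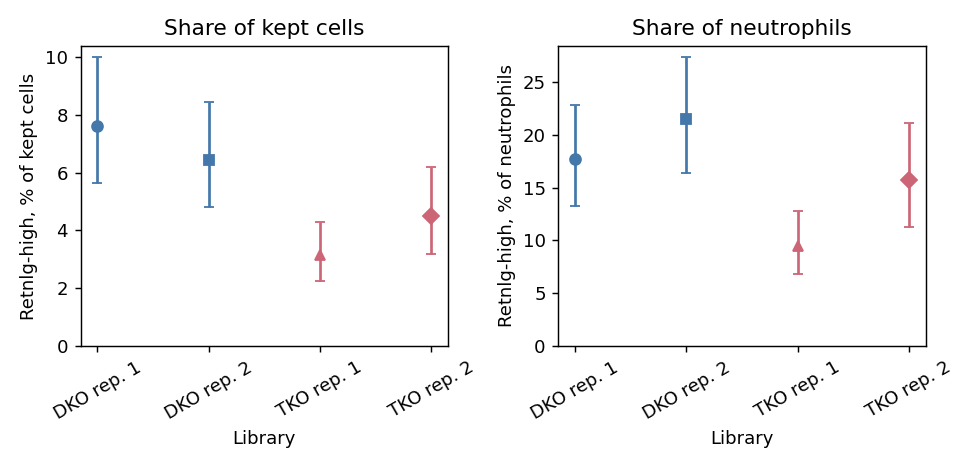
Retnlg-high neutrophils as a percentage of retained cells (left) and of neutrophils (right) in each library, with exact 95% binomial intervals. Both DKO points (7.62% and 6.46%, left) lie above both TKO points (3.15% and 4.52%), and the interval of TKO replicate 2 overlaps both DKO intervals.

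The genotypes were then compared within the Retnlg-high neutrophils, on UMIs summed per library. The targeted gene, Pygo2, gave 3 and 1 UMIs in the DKO members and 0 and 4 in the TKO members, too few to compare. It is not expected to be deleted in these cells, so it checks no label. Of 3175 genes outside the rule that passed the filter on low counts, 3 (0.0945%) passed edgeR's quasi-likelihood test with Benjamini-Hochberg adjustment, all higher in TKO. Before adjustment 83 genes (2.61%) were higher and 85 (2.68%) lower at 0.05. The median gene was at -0.01.

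Rdh12, a retinol dehydrogenase that reduces retinal, was the most evenly supported of the 3. It gave 12 and 8 UMIs in the DKO members (36.8 and 24.4 CPM) and 174 and 122 in the TKO members (667 and 533 CPM). The fitted log2 difference was 4.15 ± 0.42 (SE, edgeR adjusted p = 0.00128, 2 libraries a side). Both TKO libraries lay far above both DKO libraries. It was seen in 3 of 47 and 7 of 49 members in DKO (6.38% and 14.3%) and in 24 of 38 and 21 of 36 in TKO (63.2% and 58.3%). The most UMIs in 1 cell were 10 and 2 in DKO and 21 and 15 in TKO. With the top cell of each library left out it was still called, at 5.33 (edgeR adjusted p = 0.0115). Rdh12 was also higher in members than in the other neutrophils within each library (median log2 2.29).

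The other neutrophils showed the same gene, with 6 and 1 UMIs in DKO and 343 and 248 in TKO (log2 6.05, edgeR adjusted p = 0.0353), the only call of 7918 genes there (0.0126%). With RLE size factors this call was lost. In that fit 340 genes (4.29%) were under 0.05 before adjustment. Cells that are not neutrophils held 17, 27, 89 and 52 Rdh12 UMIs in 7195157 to 15466465 UMIs per library.

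The tested genes next to Rdh12 on mouse chromosome 12 were all at positive values in the members, from 0.34 to 4.12. None of them passed in edgeR. Rdh12 (ENSMUSG00000021123) lies at 79208914 to 79222665 on mm10. Rdh11, its neighbour at 79174337 to 79192293 and also a retinol dehydrogenase, gave 0 and 3 UMIs in the DKO members and 39 and 8 in the TKO members (log2 4.12, adjusted p = 0.497 in edgeR). Zfyve26, an endosomal protein gene at 79232346 to 79296304, gave 3 and 6 against 27 and 56 UMIs (3.48 ± 0.63, SE, edgeR adjusted p = 0.0779). Vti1b, which acts in vesicle fusion, was at 1.56 (adjusted p = 0.796 in edgeR). Arg2, arginase 2, on the far side of Vti1b, was at 0.34 (edgeR adjusted p = 0.96). It gave 330 and 296 UMIs against 388 and 263, counts that overlap before scaling to library size. Rad51b, a DNA repair gene beyond Zfyve26, gave 2 and 12 UMIs in DKO members against 2 and 1 in TKO members and was not tested there. In the other neutrophils Rdh11 was at 2.03, Zfyve26 at 1.90 and Rad51b at 1.21. Arg2 was at 0.38 and Vti1b at 0.30 in those cells, and none of these genes passed in edgeR. Rdh11 and Rdh12 are related in sequence, and reads could be shared between them.

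The 2 heat shock genes among the calls rested on very few cells. Hspa1a and Hspa1b encode inducible HSP70 chaperones and are near-identical neighbours on chromosome 17 (34969190 to 34972156 and 34956436 to 34959238, mm10), so reads can be split between them. Hspa1a gave 5 and 13 UMIs in the DKO members and 174 and 167 in the TKO members (log2 4.52 ± 0.45, SE, edgeR adjusted p = 0.00128). Of those UMIs, 166 and 141 lay in 1 cell of each TKO library. Hspa1b gave 5 and 17 against 116 and 76 UMIs (3.40 ± 0.51, adjusted p = 0.0416 in edgeR), with 101 and 43 in 1 cell. In TKO replicate 1 the same cell led both genes. Only 7 and 6 TKO members had an Hspa1a UMI, against 5 and 6 in DKO. With the top cell of each library left out Hspa1a was no longer tested and Hspa1b was at 2.77 (edgeR adjusted p = 0.594). Without the members that held RNA of another type, Hspa1b was at 4.12 (edgeR adjusted p = 0.0807).

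**Figure D4:**
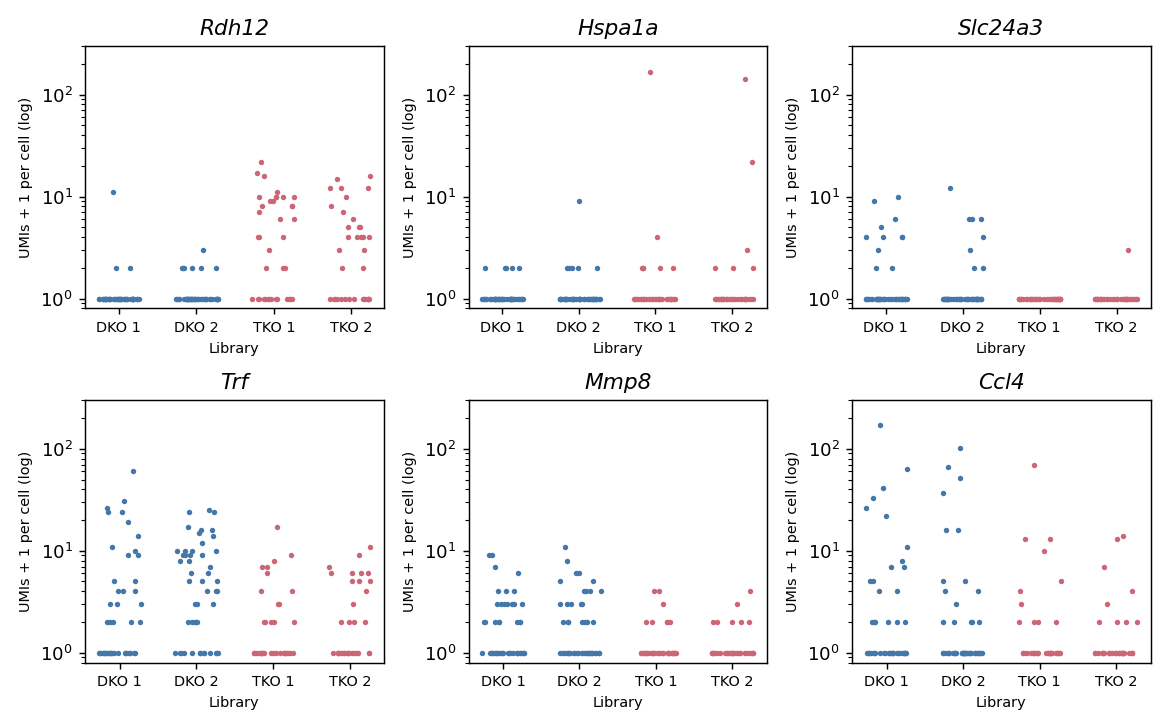
UMIs + 1 per cell (log axis) of 6 genes in every Retnlg-high neutrophil, by library. Rdh12 is spread over 24 and 21 TKO cells, whereas 166 and 141 of the Hspa1a UMIs lie in 1 cell of each TKO library.

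The next genes by p did not pass. Gm26740, which is outside the rule for named genes and was picked after its values were seen, was at 2.06 ± 0.33 (SE, edgeR adjusted p = 0.0514). DESeq2 called it. Slc24a3, a potassium-dependent sodium-calcium exchanger, gave 42 and 33 UMIs in 11 and 8 DKO members and 0 and 2 UMIs in the TKO members. The ratio of DKO over TKO was 28.1 (95% counting interval 7.5 to 236, edgeR adjusted p = 0.0514). It too was called by DESeq2 (adjusted p = 0.0363). Trf, transferrin, an iron carrier, stood at 778, 866, 242 and 284 CPM (log2 -1.77 ± 0.31, SE, edgeR adjusted p = 0.0673), and DESeq2 called it too (adjusted p = 0.00222). It was seen in 24 and 36 DKO members and in 15 and 16 TKO members.

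Mmp8, at 178 and 195 against 49.8 and 43.7 CPM, did not pass either (-2.10 ± 0.43, edgeR adjusted p = 0.179), and in the other neutrophils its difference was alike in size (-2.09). Ccl4, a chemokine, was at 1226 and 927 CPM against 441 and 175 (-1.91 ± 0.44, adjusted p = 0.433 in edgeR). Of its DKO UMIs, 170 of 400 and 100 of 304 lay in 1 cell. DESeq2 called Ccl4 (adjusted p = 0.0115) and Zfyve26 (adjusted p = 0.0114). Ppard, a nuclear receptor for fatty acids, was at 392 and 454 CPM against 192 and 135 (-1.48 ± 0.36, adjusted p = 0.433 in edgeR). Pid1 gave 15 and 30 UMIs against 0 and 1, a ratio of 33.7 (95% counting interval 5.74 to 1359). That interval covers counting error only, and Pid1 did not pass (adjusted p = 0.164 in edgeR and 0.495 in DESeq2). The genes named here were chosen among those whose genotypes do not overlap, 11.5% of all genes tested in this direction and 23.6% in the other, so that they are apart is no finding.

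**Figure D5:**
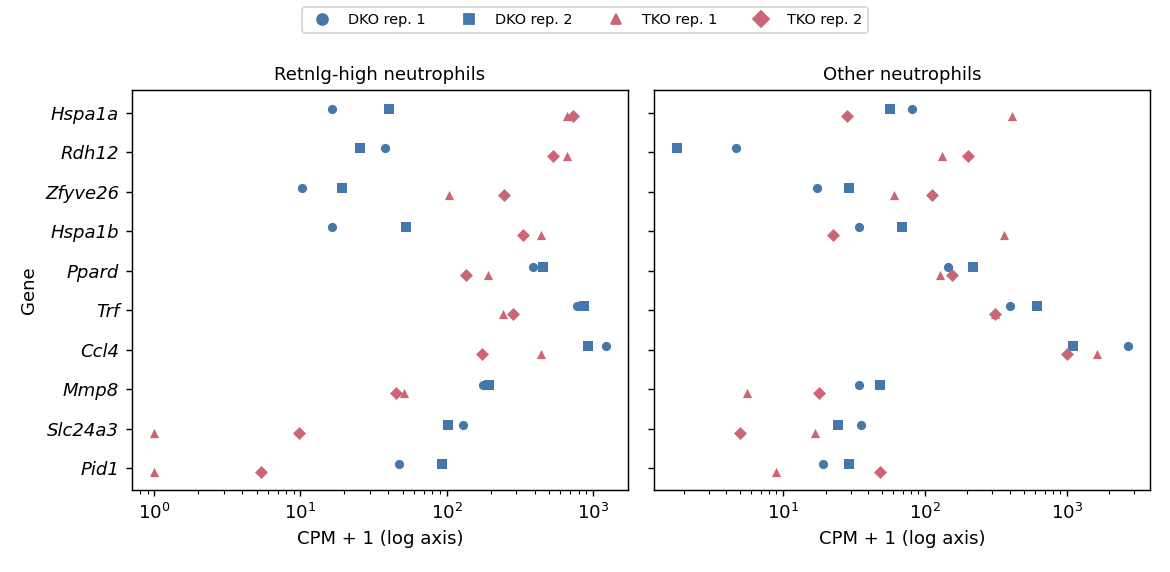
CPM + 1 (log axis) of the 10 genes with the smallest p among those whose genotypes do not overlap, in Retnlg-high neutrophils (left) and in other neutrophils (right), 1 point per library. Rdh12 is apart by genotype in both panels (36.8 and 24.4 against 667 and 533 CPM on the left), while Hspa1a overlaps in the other neutrophils.

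Gene lists were read by how their tested members leaned, and apart from Hspa1a, Hspa1b and Rdh12 none of their genes passed in edgeR. The median over all genes fitted was -0.01, so about as many genes were negative as positive. Lists share genes, Junb among them, so their leans are not separate, and the leans were not tested. The 14 immediate early genes were all at negative values (median log2 -0.35), with the smallest p for Nfkbia, an NF-kB inhibitor (-0.84 ± 0.29, SE), and Junb, an AP-1 subunit (-0.78 ± 0.27), and edgeR adjusted p from 0.796 to 1. Of 16 chemotaxis and adhesion receptors 14 were negative (median -0.39). Ccrl2, an atypical chemoattractant receptor, had the smallest p (-1.08 ± 0.26, edgeR adjusted p = 0.433). Of 11 genes that respond to G-CSF and STAT3, 10 were negative (median -0.53). Among them Socs3, the feedback inhibitor of this pathway, stood at 1501, 540, 514 and 354 CPM (-1.36 ± 0.47, edgeR adjusted p = 0.796), and DKO replicate 1 alone was high.

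The 5 stefin and WAP genes tested were negative (median -0.37, beside -0.01 over all genes fitted). So were 13 of 16 tumour-adapted genes (-0.33) and 9 of 12 chemokines and cytokines (-0.66), lists that share Ccl3 and Ccl4. Cxcl2, which draws in neutrophils, was at -0.80 ± 0.30 (SE, edgeR adjusted p = 0.796). Late granule genes were negative in 7 of 10 (-0.37). Chil3, a chitinase-like protein, gave 30 and 56 UMIs against 8 and 0, and its value was -3.11 ± 0.84 (edgeR adjusted p = 0.563). Positive values prevailed in 11 of 15 interferon-inducible genes outside the rule (0.27), with Gbp2 at 1.42 ± 0.55 and Ifih1, an RNA sensor, at 1.17 ± 0.54 (edgeR adjusted p = 0.796 and 0.926). The 5 heat shock genes tested were positive (median 0.88). Beyond Hspa1a and Hspa1b these were Hsp90aa1 (0.88 ± 0.32), Hspa8 (0.84 ± 0.31) and Dnajb1 (0.67 ± 0.54), none of which passed in edgeR (adjusted p = 0.796, 0.796 and 0.96). Glycolysis, NADPH oxidase and suppressive myeloid genes leaned neither way, with medians of 0.02, 0.01 and -0.16. The simulated test at this depth found 61.5% of simulated 4-fold changes but 2.5% of simulated 2-fold ones, so 2-fold changes of single genes were rarely called. Shifts of a list median were not simulated.

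Whether the genotype difference of the members differed from that of the other neutrophils was tested in 1 fit over both. Of 6719 genes 0 passed in edgeR, where 268 (3.99%) were under 0.05 before adjustment, and 0 passed in DESeq2. The smallest p-values were those of Tcaf3, Pid1 and Pstpip2 (edgeR adjusted p = 0.224, 0.224 and 1). Tcaf3, a prostate-expressed gene, rested on 203 UMIs in the 1 TKO replicate 2 cell that held secretory transcripts. Pid1 differed by -5.37, being at 0.14 in the other neutrophils, and Pstpip2, an actin-binding adaptor, by 1.90. Rdh12 differed by -1.97 (edgeR adjusted p = 1), and its DKO level was higher in the members. With the top cell of each gene and library left out, Ccl4 was the 1 call in edgeR.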

How the data were processed

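Single-cell RNA was counted in 4 libraries of dissociated prostate tumours, loaded together and told apart by hashtag antibodies. The deposited values are whole-number UMI counts per gene and cell, made by the authors with Cell Ranger 7.0.0 and STAR on mm10, per the submitters' processing notes. Tissue was digested with enzymes, red cells were lysed and Annexin V-binding cells removed, per the labels' protocols. Barcodes with under 200 genes or over 20% mitochondrial UMIs were dropped, which left 3381 of 3508. No doublet caller was run here, and the UMI rules above chose the cells with no clustering.

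Counts were summed per library over the 170 members and, separately, over the 954 other neutrophils. Genotypes were compared with edgeR 4.0.16 (R 4.3.3, limma 3.58.1; TMM scaling, filterByExpr, robust quasi-likelihood test), with Benjamini-Hochberg adjustment over all genes fitted; the 23 rule genes give levels only. DESeq2 1.42.0 was an alternative. Shares were compared by exact permutation of the 4 libraries (smallest p 0.333, scipy 1.17.1). Intervals are exact (Clopper-Pearson). The test was tried on simulated counts of 3187 genes. Other alternatives were the UMI thresholds, depth thinning, other scaling or filters, leaving out libraries and leaving out single cells.

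Named genes were the 10 with the smallest genotype p among genes of at least 20 CPM whose genotypes do not overlap, the 15 highest and 15 lowest against other neutrophils at 50 CPM or more, the 3 smallest p of the difference between both groups, and members of 16 gene lists. The members and the lists were chosen with earlier results of these data known. Promoter sequences are from RefSeq (GRCm38.p6), and 6 of 6 genes looked up were matched. Some items, among them 1 gene of the highest 15 and part of the genotype, are not reported here.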

Additional observations from a re-analysis of the deposited data

Results flagged for a closer look

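Hashtag A0307, which belongs to none of the 4 libraries, gave 681 UMIs in the Retnlg-high neutrophils. Hashtag A0308, likewise of no library analysed here, gave 648 UMIs in them.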

How the results depend on the processing

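The 3 genotype calls in Retnlg-high neutrophils became 8 with DESeq2, 5 with RLE size factors, 26 with no filter on low counts, 6 with a threshold of 3 UMIs, 1 with neutrophil genes at 2% or more and 1 with the top cell of each gene left out. With the replicate block there were 18 calls; replicate numbers share only a number here (correlation of deviations 0.28, 2 numbers). Leaving out 1 library gave 15 (TKO replicate 2), 17 (DKO replicate 1), 20 (DKO replicate 2) and 54 (TKO replicate 1) calls, with the lone library assumed to vary like the other genotype, and all 3 genes were among the calls each time. Rdh12 alone passed under each of its 15 alternatives, with adjusted p from 1.15e-16 to 0.0115. Hspa1a had an adjusted p of 0.146 at a threshold of 10 UMIs. The 1 call in the other neutrophils became 10 with DESeq2, 0 with RLE size factors, Rdh12 included (340 under 0.05 before adjustment), 64 with no filter, 5 with the replicate block and 6 to 58 without 1 library (58 without DKO replicate 1, 51 without DKO replicate 2, 6 without TKO replicate 1, 7 without TKO replicate 2). The 0 calls for the difference between both groups became 2 with no filter, 5 at 10 UMIs, 1 with top cells left out and 0 to 14 without 1 library (14 without TKO replicate 1). Tcaf3 there went from 8.58 to -8.35 with shares of UMIs and ran from -1.92 (without TKO replicate 2) to 9.63. The share of retained cells differed by -4.21 points after thinning and -4.66 without the upper limits, and by -3.89 to -2.52 without 1 library. The share of neutrophils differed by -10.1 (without TKO replicate 2) to -3.86 points (without TKO replicate 1). The 498 genes 2-fold apart from other neutrophils became 109 against neutrophils within the limits. The causes were not tested. Of 184 alternative values of named genes, 133 kept direction and side of the threshold, 45 newly passed, 4 no longer passed and 2 reversed. Counts of 228875 to 328082 UMIs per library limit what a rare transcript can show.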
